A study of Mus musculus with 48 samples.

Results

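*Calr* encodes calreticulin and *Lrp1* encodes the low-density lipoprotein receptor-related protein 1, the 2 members of a receptor pair described here by their mRNA levels in RAW264.7 cells, a mouse macrophage line. They were taken by name from the deposited count table, as 2 of its 49568 genes. Calreticulin has been described as the cell-surface receptor of the SE peptide, 1 of the peptides added to these cells. All cells were cultured for 72 h in culture medium with serum. They received PBS only, a peptide at 100 µg/ml, mouse IFN-γ (IFNy in the labels) at 5 ng/ml, or a peptide and IFN-γ together. The peptides were synthetic 15-mers covering residues 65 to 79 of the HLA-DR β chain, from allele 0301 (LE), allele 0401 (SE) or allele 0402 (PE). This gave 8 groups, PBS, LE, SE, PE, IFNy, LE+IFNy, SE+IFNy and PE+IFNy, with 6 libraries each. RAW264.7 is a single line, so the libraries were cultures of the same cells and not different animals, and p-values measure the spread between these cultures only.

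The libraries carry 2 kinds of label. In each group 3 were named by a letter and 3 by an HLA code, and the values below come from the 24 letter-labelled libraries (3 per group), which held 16498562 to 26929356 counts each. Of the 24 HLA-labelled libraries, 12 went against their IFN-γ label. Averaged over 18 target genes of IFN-γ, log2 CPM was 7.03 to 7.40 in letter-labelled libraries whose label names IFN-γ and 1.66 to 2.12 in the others, with 0 of 24 against their label. The HLA-labelled libraries are therefore given apart, as labelled. In the column order of the table, those standing beside letter-labelled columns without IFN-γ had target levels of 1.36 to 2.04 and those beside columns with IFN-γ 6.58 to 7.43, so that the HLA labels are in doubt; no group was taken from that order. All 8 macrophage markers were at 70.6 CPM or more in every letter-labelled library, and 9 of 10 markers of other cell types were under 1 CPM in all of them, with 3 at 0 counts throughout.

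Calreticulin is a calcium-binding chaperone of the endoplasmic reticulum (ER). With calnexin and the oxidoreductase ERp57 (Pdia3) it holds newly made glycoproteins until they fold, and with tapasin and the TAP transporter it loads peptides onto MHC class I. Some of it reaches the cell surface, where it has no membrane anchor of its own and binds to Lrp1, among others. Lrp1 is a very large endocytic receptor of the LDL receptor family. It takes up lipoproteins, proteases with their inhibitors, and, through calreticulin and C1q, dying cells. Its folding needs the chaperone Lrpap1, furin cuts it in the Golgi, and metalloproteases such as Adam17 can shed its outer part.

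The promoter of *Calr* holds a motif that other ER chaperone genes hold too, and the windows below show it for *Calr*, *Hspa5* (the chaperone BiP) and *Canx* (calnexin). They are from RefSeq, build GRCm38.p6, each written 5′ to 3′ along its own gene and lying wholly upstream of the start. Capitals mark a match to the ER stress response element (ERSE), CCAAT and CCACG with any 9 bases between them, searched on both strands. It is found in 39 of 32851 promoters (0.119%). A promoter here is a short stretch around the start, chr8:84846882-84847181 for *Calr* and chr10:127621099-127621398 for *Lrp1*. Matches farther off were not searched.

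Calr: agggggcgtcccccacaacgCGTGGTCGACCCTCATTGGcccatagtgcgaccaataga

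Hspa5: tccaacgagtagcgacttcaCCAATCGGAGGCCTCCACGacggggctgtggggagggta

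Canx: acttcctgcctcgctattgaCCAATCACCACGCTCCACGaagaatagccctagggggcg

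The *Calr* window lies at chr8:84847055-84847113 on the minus strand. Its match reads in the opposite orientation to the gene, from 162 to 144 bases upstream of the start. The *Hspa5* window is chr2:34772005-34772063 on the plus strand, and the *Canx* window is chr11:50325780-50325838 on the minus strand; both hold the match in the orientation of the gene. The *Lrp1* promoter held no such match. It held 1 match to TTCNNNGAA, the letters of the IFN-γ activated site (GAS), which 8.30% of all promoters hold. It is shown in capitals in the next window, chr10:127621352-127621398 on the minus strand.

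Lrp1: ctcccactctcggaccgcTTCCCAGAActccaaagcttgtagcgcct

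*Calr* itself lies on chromosome 8 (84841850 to 84846934, minus strand) and its longest transcript has 2184 bases. *Lrp1* lies on chromosome 10 (127538161 to 127621148, minus strand), with a transcript of 14888 bases (GENCODE M21, GRCm38). Counting error was small for both, with 65456 to 141655 counts for *Calr* and 8582 to 23367 for *Lrp1* per letter-labelled library. The processed pseudogene *Calr-ps* had at most 126 counts (0.116% of those of *Calr*), *Calr3* at most 81, *Calr4* at most 7, and *Lrp1b*, the nearest relative of *Lrp1*, at most 13.

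*Calr* was among the most abundant messages of these cells. It ranked 7th to 22nd by CPM (counts relative to library size, scaled by the trimmed mean of M values) among 27039 genes with a count, and 12th to 34th by CPM per kilobase. *Lrp1* ranked 107th to 401st by CPM, but as a long transcript only 984th to 2732nd per kilobase.

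Without IFN-γ, *Calr* varied little. The PBS libraries had 4301, 4729 and 4438 CPM (4489 ± 218, SD, n = 3). The LE libraries had 5138, 4854 and 5379 CPM, and the SE libraries had 5542, 5281 and 5840 CPM. The PE libraries had 5323, 4827 and 5309 CPM. Every peptide library was above every PBS library, and the peptide groups overlapped each other.

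With IFN-γ alone, *Calr* was at 4860, 5650 and 5270 CPM, also above all PBS libraries. Adding LE to IFN-γ gave the lowest levels of the series, 3071, 3070 and 2866 CPM. With SE and IFN-γ, *Calr* was at 3813, 4202 and 3847 CPM, between those of LE+IFNy and PBS and touching neither. With PE and IFN-γ it was at 5301, 5299 and 5742 CPM, within the range seen with IFN-γ alone except for its highest library.

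Ordered by mean, *Calr* stood at 5554 ± 279 CPM in SE, 5447 ± 255 in PE+IFNy, 5260 ± 395 in IFNy, 5153 ± 282 in PE and 5123 ± 263 in LE (SD, n = 3). These 5 groups overlapped their neighbours. Below them came PBS, then SE+IFNy at 3954 ± 215 CPM, then LE+IFNy at 3002 ± 118 CPM, and each of these steps was free of overlap. The highest group mean was 1.85 times the lowest.

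*Lrp1* followed another order. The PBS group had the highest mean, with 864, 1035 and 966 CPM. The LE libraries had 790, 985 and 833 CPM and the PE libraries 756, 904 and 982 CPM, both overlapping PBS. The SE libraries, at 746, 844 and 730 CPM, all lay below PBS.

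With IFN-γ alone, *Lrp1* was at 492, 426 and 403 CPM, less than any library without IFN-γ. The LE+IFNy libraries had 722, 579 and 654 CPM, all above IFNy and all below SE, whose lowest library had 730 CPM. The SE+IFNy libraries, with 564, 485 and 505 CPM, overlapped IFNy, and so did the PE+IFNy libraries, with 434, 389 and 381 CPM.

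By mean the order of *Lrp1* was PBS (955 ± 86.3 CPM), PE (880 ± 115), LE (869 ± 102), SE (773 ± 61.4), LE+IFNy (652 ± 71.6), SE+IFNy (518 ± 41.3), IFNy (440 ± 46.6) and PE+IFNy (401 ± 28.8; SD, n = 3). Only the steps from SE to LE+IFNy and from LE+IFNy to SE+IFNy were free of overlap. The highest mean was 2.38 times the lowest, a wider range than for *Calr*.

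**Figure D1:**
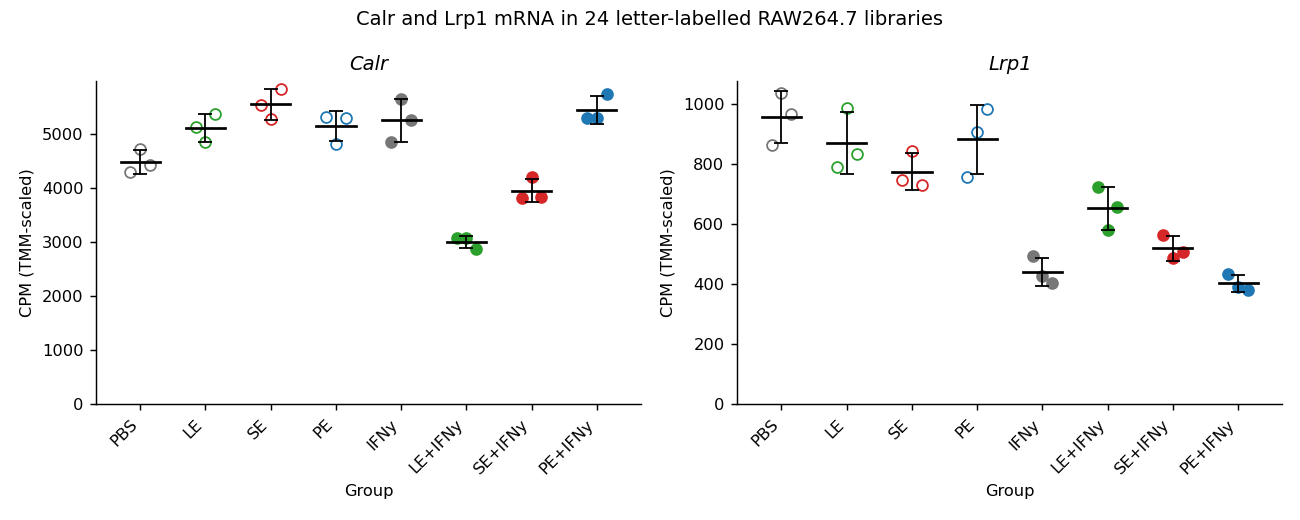
Each point is 1 letter-labelled library, with *Calr* on the left and *Lrp1* on the right. The y axis gives CPM from 0, filled points are groups with IFN-γ, and bars show the mean and SD of 3 libraries. *Calr* was lowest in LE+IFNy (3002 CPM) and *Lrp1* in PE+IFNy (401 CPM).

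The first comparison asks what IFN-γ does to the pair without peptide. *Lrp1* fell 2.17-fold, with a log2 fold change of -1.12 (SE 0.09, adjusted p = 3.77e-06). *Calr* differed by 0.23 (SE 0.09), which missed the threshold (adjusted p = 0.0529). These and all later fold changes come from edgeR's quasi-likelihood test, adjusted by the Benjamini-Hochberg method over all genes tested, and passed means an adjusted p under 0.05. Of 12242 genes tested here 39.7% passed, so 1 of 2 members passing is near what all genes gave. The summed level of the 8 macrophage markers was 8951 to 9647 CPM in PBS and 6816 to 7631 CPM in IFNy. Gene by gene 3 of the 8 rose and 3 fell, where 20.2% of all genes rose and 19.5% fell. The lower sum was thus not shared by all markers, and their part in the fall of *Lrp1* was not tested. All cultures were of 1 cell line, so the sum is a level of these messages and not a share of cells. Its largest part was *Lyz2*, at 2942 to 7526 CPM over the letter-labelled libraries.

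The partners of calreticulin did not all move as it did. Among 19 tested ER chaperone and stress genes, 14 rose with IFN-γ and 1 fell (median 0.32 against -0.01 for all genes tested, of which 20.2% rose). *Hspa5* rose by 0.99 (SE 0.12) and *Herpud1*, an ER degradation factor, by 0.73, while *P4hb*, a protein disulphide isomerase, fell by 0.45. Of 6 genes of the MHC class I peptide-loading complex 5 rose, led by the transporter subunit *Tap1* (2.78) and the tapasin relative *Tapbpl* (2.26), and *Pdia3*, at 0.18, did not pass. Of 12 genes of the calnexin and calreticulin cycle, 2 rose and 1 fell, with *Canx* at -0.09 (adjusted p = 0.459).

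The lists around *Lrp1* are read against all genes in the same comparison, of which 20.2% rose and 19.5% fell. Of 9 tested relatives in the LDL receptor family, 3 fell and 1 rose, a share near that of all genes. The sorting receptor *Sorl1* fell by 0.58 and *Lrp10* rose by 0.28. Of 12 genes for Lrp1 ligands 8 rose and 1 fell, with complement *C3* at 3.04 and the protease *Mmp9* at -1.72. The sheddase *Adam17* fell by 0.99 and the chaperone *Lrpap1* was at -0.05 (adjusted p = 0.572). Of 20 tested genes for the uptake of dying cells 7 rose and 7 fell, and the bridging ligand *Gas6* fell by 1.23.

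The peptides alone, compared with PBS, moved the pair little. *Calr* rose with SE by 0.30 (SE 0.07, adjusted p = 0.0185), where 14.3% of 12420 genes passed. It was at 0.18 with LE (adjusted p = 0.266) and at 0.19 with PE (adjusted p = 0.0772). *Lrp1* was at -0.32 with SE (adjusted p = 0.0603), -0.15 with LE (adjusted p = 0.492) and -0.13 with PE (adjusted p = 0.410). With LE 0.0242% of genes passed and with PE 20%.

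The SE result kept its direction but not always its call when 1 replicate number was left out. Without replicate 1 the difference of *Calr* was 0.27 with an adjusted p of 0.258, and without replicate 3 it was 0.25 with an adjusted p of 0.121 (edgeR). Without replicate 2 it was 0.37 and passed (adjusted p = 0.0316, edgeR). Over all genes, those passing went from 1782 to 3 without replicate 1 and to 24 without replicate 3, so most calls were lost there. Fold changes over all genes also followed transcript length in these comparisons (Spearman's rho across genes, which are not independent, -0.40 to -0.49). At the length and GC content of *Lrp1* that trend was -0.23 for SE and -0.24 for PE, and at those of *Calr* it was 0.08 for both. Its part in the differences was not tested.

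No pair of peptides passed the test for either gene without IFN-γ. For *Calr* the 95% intervals were -0.27 to 0.04 for LE against SE, -0.16 to 0.15 for LE against PE and -0.04 to 0.26 for SE against PE. For *Lrp1* they were -0.06 to 0.40, -0.24 to 0.21 and -0.41 to 0.04. A fold change beyond 1.5 lies outside all of them, and 0.00805%, 0.0403% and 0.0483% of all genes passed in the same 3 comparisons.

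Model A, the term used for a peptide with IFN-γ against IFN-γ alone, separated the members. With LE, *Calr* fell 1.75-fold (log2 -0.81, SE 0.06, adjusted p = 9.52e-09) and *Lrp1* rose 1.48-fold (0.57, SE 0.09, adjusted p = 2.96e-05). With SE, *Calr* fell 1.34-fold (-0.42, SE 0.06, adjusted p = 3.96e-05), and *Lrp1* rose 1.17-fold (0.23, SE 0.09) with an adjusted p of 0.0491, at the threshold and with overlapping groups. With PE neither passed, at 0.05 for *Calr* (95% interval -0.07 to 0.18) and -0.13 for *Lrp1* (-0.31 to 0.05). Of 12720 genes tested, 50.5% passed with LE, 33.4% with SE and 10% with PE, so passing was common; a fall past a fold of 1.5, as *Calr* showed with LE, was seen in 5.93% of genes.

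The rise of *Lrp1* with SE was lost under other fits. Its adjusted p was 0.104 when all 8 groups entered 1 edgeR fit, 0.0538 without replicate 2 and 0.216 without replicate 3. Beside these changes, the summed macrophage markers were 7990 to 9006 CPM in LE+IFNy, 7694 to 7905 CPM in SE+IFNy and 6539 to 6816 CPM in PE+IFNy. Of the 8 markers 5 rose and 1 fell with LE, 3 rose and 0 fell with SE, and 1 rose and 4 fell with PE. Of all genes 50.5%, 33.4% and 10% passed there, and the part of the markers was not tested.

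When IFN-γ was present, the 3 peptides compared among themselves gave 3 pairs, and both members passed in each. For *Calr* LE was below SE (log2 difference -0.39, adjusted p = 0.000159) and below PE (-0.86, adjusted p = 4.16e-09), and SE was below PE (-0.47, adjusted p = 1.17e-05; edgeR). For *Lrp1* LE was above SE (0.34, adjusted p = 0.00581) and above PE (0.70, adjusted p = 2.19e-06), and SE was above PE (0.36, adjusted p = 0.00362; edgeR). The order of the peptides was thus LE, SE, PE from low to high for *Calr* and from high to low for *Lrp1*. Of all genes 35.6%, 59.9% and 34.4% passed in the same pairs.

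**Figure D2:**
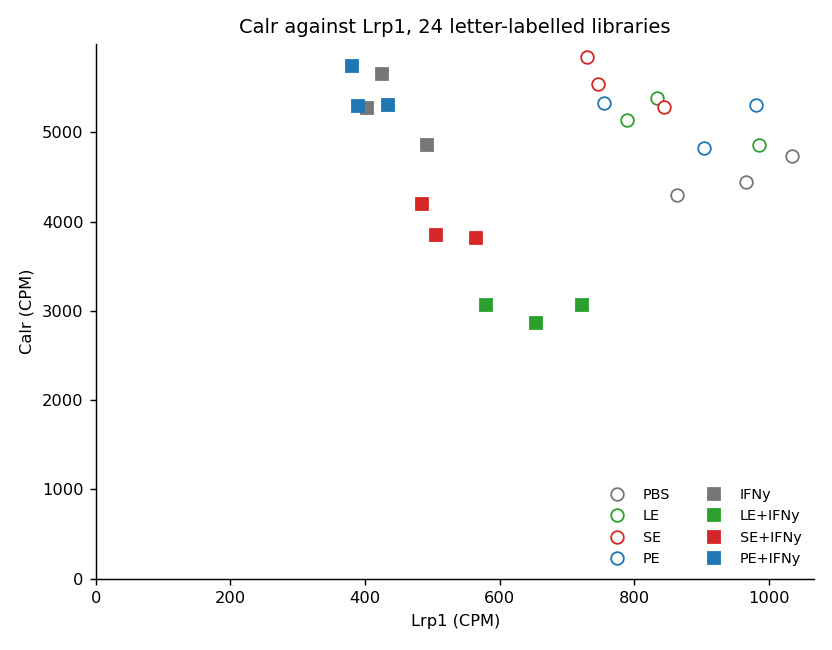
Each point is 1 letter-labelled library, with *Lrp1* CPM on the x axis and *Calr* CPM on the y axis, both from 0. Open circles are groups without IFN-γ and filled squares groups with it. The IFN-γ groups run from PE+IFNy (401 and 5447 CPM on average) to LE+IFNy (652 and 3002 CPM), while groups without IFN-γ lie at the upper right.

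Model B, a peptide with IFN-γ against the same peptide alone, asks how cultures with both differ from cultures with the peptide only. *Lrp1* fell in all 3, by 0.41 with LE (adjusted p = 0.00110), 0.58 with SE (adjusted p = 4.45e-05) and 1.12 with PE (adjusted p = 1.09e-08; edgeR). The last was as large as with IFN-γ against PBS, and the first rested on replicate 2, without which it was -0.22 (adjusted p = 0.107). *Calr* fell by 0.77 with LE (adjusted p = 1.39e-09) and by 0.50 with SE (adjusted p = 1.14e-06; edgeR), and was at 0.09 with PE (95% interval -0.04 to 0.22). Of 12947 genes 65.9%, 57.5% and 49.9% passed.

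The interaction tests whether the effect of IFN-γ with a peptide differs from its effect without one. For *Calr* it was -1.0 with LE (SE 0.10, adjusted p = 5.98e-08) and -0.72 with SE (SE 0.10, adjusted p = 1.24e-05). For *Lrp1* it was 0.70 with LE (SE 0.15, adjusted p = 0.000609) and 0.54 with SE (SE 0.15, adjusted p = 0.0114), the latter lost without replicate 3 (0.45, adjusted p = 0.145) and at 0.33 with the length and GC trend subtracted, which gives no test. With PE both intervals held 0, at -0.35 to 0.05 for *Calr* and -0.32 to 0.29 for *Lrp1*. Passing genes made up 38.5% with LE, 19.8% with SE and 0.0% with PE of 13096. For PE 1073 genes had an unadjusted p under 0.05. DESeq2 passed 25 of the 1352 genes to which it gave an adjusted p, a smaller set than the 13096.

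**Figure D3:**
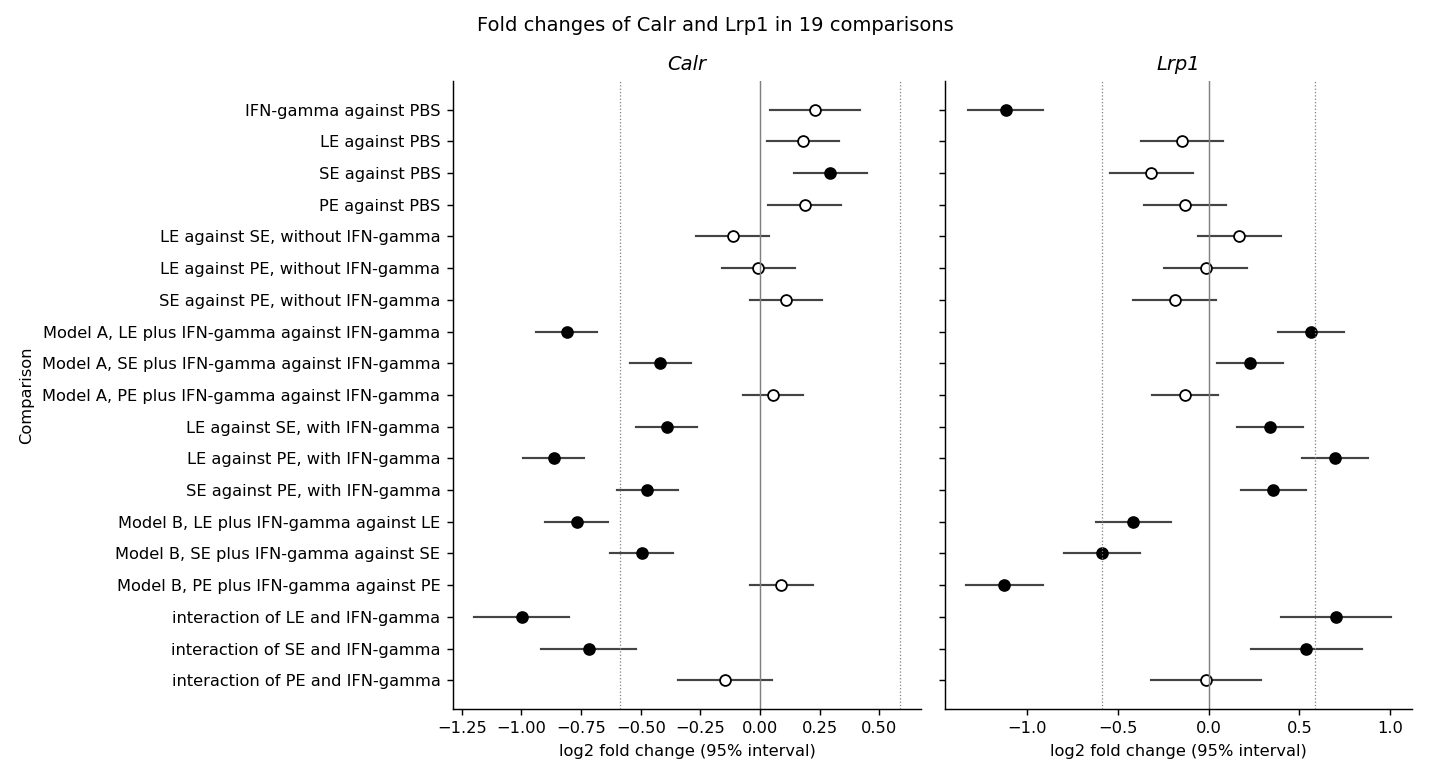
Log2 fold changes (x axis) of *Calr* (left) and *Lrp1* (right) in 19 comparisons (y axis), with 95% intervals from edgeR. Filled points passed an adjusted p of 0.05 and dotted lines mark a fold change of 1.5. The values with LE and SE in the presence of IFN-γ lie on opposite sides of 0 for the 2 genes in Model A and in the interactions.

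Most ER chaperone genes fell in Model A with LE and with SE, as *Calr* did. With LE 15 of 19 ER chaperone and stress genes fell and 2 rose, with a median of -0.61 (24.8% of all genes fell, median -0.01). The largest falls were *Creld2*, an ER-resident disulphide isomerase, at -1.25 and *Sdf2l1*, a partner of BiP, at -1.07, and those that rose were the oxidase *Ero1l* and the co-chaperone *Dnajb9*, both by 0.34. With SE again 15 fell and 2 rose, with a median of -0.52 (16.6% of all genes fell). *Dnajc3* fell by 0.85 and *Hsp90b1*, the chaperone Grp94, by 0.71. With PE 3 fell and 0 rose (4.58% of all genes fell).

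In the calnexin and calreticulin cycle 7 of 12 genes fell with LE, where 24.8% of all genes fell, and 9 with SE, where 16.6% did. In either case 0 rose, where 25.7% and 16.7% of all genes did. *Pdia3* fell by 0.81 with LE and by 0.59 with SE, where *Calr* fell by 0.81 and by 0.42. *Ppib*, a proline isomerase, fell by 0.71 with LE, and *Uggt1*, the sensor that returns unfolded glycoproteins to the cycle, by 0.72 with SE. *Canx* was at -0.08 with LE (adjusted p = 0.283) and fell by 0.27 with SE. In the peptide-loading complex *Tap1* was at 0.05 with LE (adjusted p = 0.427) and *B2m*, the class I light chain, rose by 0.22, so that *Pdia3* and *Tapbpl* (-0.24) were the members of that list that fell. Of 13 genes of ER calcium handling, in which calreticulin takes part as a store, 5 rose and 4 fell with LE, where 25.7% of all genes rose and 24.8% fell, among them the channel *Itpr1* (0.43) and the plasma membrane channel *Orai1* (-0.52).

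*Hspa5* shows how the order of groups differed among these chaperones. It stood at 7112 ± 1146 CPM in PBS and 14115 ± 1181 CPM in IFNy (SD, n = 3). It fell in Model A by 0.49 with LE and by 0.38 with SE, yet at 10029 ± 549 and 10923 ± 297 CPM stayed above all groups without IFN-γ. *Calr* in those same groups was below PBS.

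Among the 37 genes whose promoter held the ERSE, 11 had a mean of at least 10 CPM, *Calr*, *Hspa5* and *Canx* among them. The others were *Alg12*, *Creld2*, *Dnajc3*, *Hnrnpa3*, *Hsp90b1*, *Pan2*, *Pdia6* and *Syvn1*. With LE in Model A 9 of the 11 fell and 1 rose (median -0.67), where 24.8% of all genes fell. With SE 9 fell (median -0.45), where 16.6% of all genes fell, and with PE 2 fell, where 4.58% did. These counts include *Calr* itself, which is among those that fell with LE and with SE. With IFN-γ against PBS 5 rose and 1 fell, where 20.2% of all genes rose. The motif is a match of letters in these windows and not a shown binding site, and 5 of the 11 genes are also in the ER chaperone list.

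In the LDL receptor family 4 of 9 tested genes fell and 1 rose with LE, where 24.8% of all genes fell and 25.7% rose. The same counts were found with SE, where 16.6% fell and 16.7% rose; *Lrp12* was the one that rose in both (0.66 and 0.43) and *Lrp8* fell in both (-0.61 and -0.62). With PE 2 fell and 1 rose, with *Lrp8* at -0.33 and *Lrp10* at 0.22. *Lrp1*, which rose with LE, thus had the direction of *Lrp12* there.

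Genes for Lrp1 ligands and helpers are to be read against the same shares of all genes, 50.5% passing with LE and 33.4% with SE. With LE 5 of 12 ligand genes rose and 4 fell, with the urokinase *Plau* at 1.15 and *Apoe* at -0.89, a low message here at 2.35 CPM in LE+IFNy and 4.36 CPM in IFNy. With SE 4 rose and 2 fell, with *Mmp9* at 0.60. *Lrpap1* rose by 0.16 with LE and by 0.23 with SE, and *Adam17* rose by 0.47 with LE. The adaptor *Dab2* rose by 0.31 and by 0.43. Of 21 tested genes for the uptake of dying cells, 6 rose and 8 fell with LE, among them the scavenger receptor *Stab1* (0.86) and the integrin subunits *Itgav* (0.70) and *Itgb5* (-0.66).

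**Figure D4:**
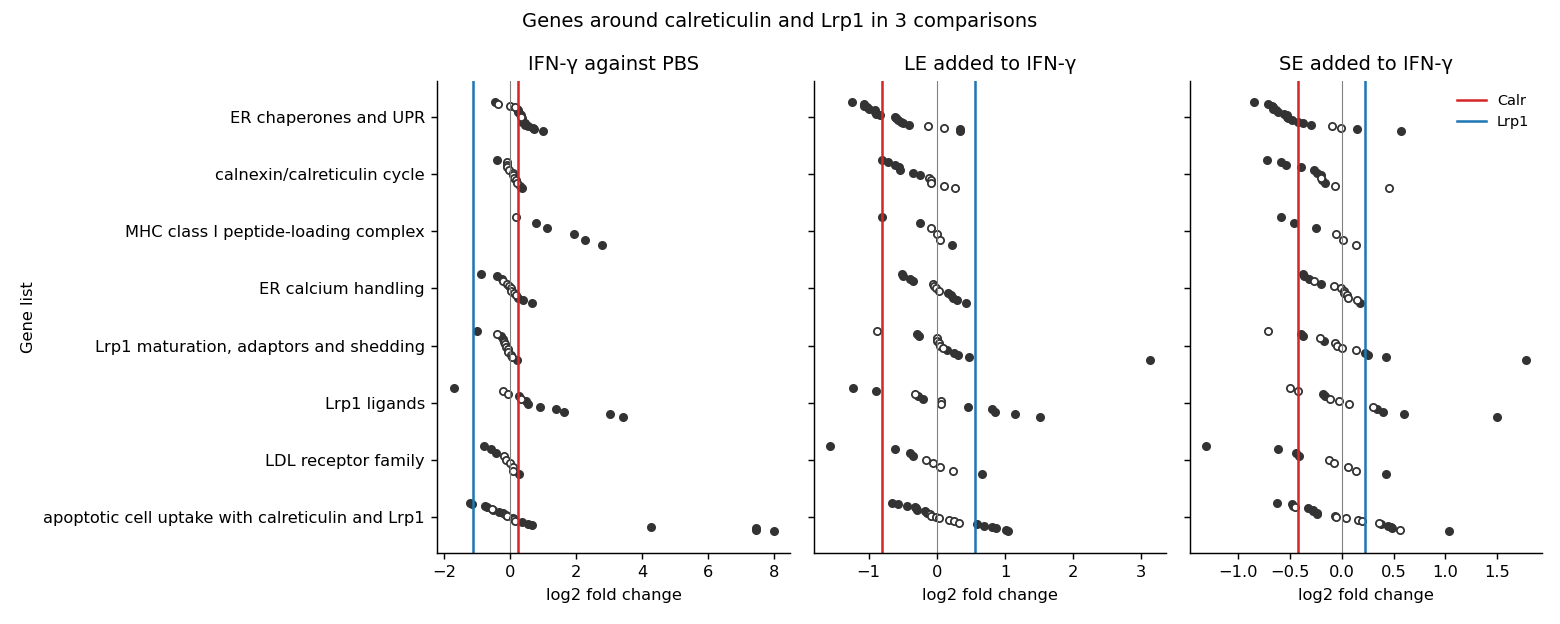
Log2 fold changes (x axis, a scale of its own in each panel) of the tested genes of 8 lists (y axis) for IFN-γ against PBS and for LE and SE added to IFN-γ. Filled points passed an adjusted p of 0.05; the red line is *Calr* and the blue line *Lrp1*. ER chaperones lie mostly right of 0 with IFN-γ (14 rose) and left of 0 when LE or SE was added (15 fell in each).

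The genes whose log2 CPM was most like that of *Calr* over the 24 letter-labelled libraries, among 8631 with a mean of at least 10 CPM, were *P3h3* (Pearson r = 0.980), *Pdia6* (0.978), *Lrmp* (0.976), *Nr2c2ap* (0.976) and *Slc35c2* (0.973). Over the 8 group means these r were 0.985 to 0.999. *Pdia3* reached 0.944, *Hspa5* -0.07 and *Canx* -0.18 over the libraries. For *Lrp1* the most alike were *Snx25* (0.958), *Rere* (0.956), *Pik3r5* (0.955), *Ankrd13a* (0.951) and *Plxnd1* (0.950), and *Hspa5* stood at -0.93. Between *Calr* and *Lrp1* r was -0.04. These are descriptions over 24 points that share 8 treatments, and libraries of 1 group are not independent points.

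The ratio of the members differed between groups. Per kilobase, *Calr* exceeded *Lrp1* 32.1 ± 1.58 times in PBS, 82.3 ± 13.0 times in IFNy and 92.9 ± 9.81 times in PE+IFNy (SD, n = 3). In SE+IFNy the ratio was 52.4 ± 6.53. In LE+IFNy it was 31.7 ± 3.89, overlapping PBS, though both genes were lower there than in PBS.

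The HLA-labelled libraries, scaled together with the letter-labelled ones, gave other levels under the same labels. Those labelled LE had *Calr* at 2149, 2097 and 2806 CPM with IFN-γ targets at 7.28 to 7.43, and those labelled PE had 1997, 2060 and 2426 CPM with targets at 7.01 to 7.23. These are IFN-γ target levels like those of letter-labelled libraries with IFN-γ. The libraries labelled IFNy had 4998, 4898 and 4497 CPM and those labelled SE+IFNy 4547, 4386 and 4730 CPM, with targets at 1.36 to 1.74 in both.

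The remaining HLA-labelled groups had target levels on the side of their labels, but those levels do not test which peptide was added. In the column order these groups too stood beside letter-labelled columns of another group. *Calr* was at 5119, 5167 and 5499 CPM in those labelled PBS and at 4923, 4998 and 4631 CPM in those labelled SE. It was at 4911, 4585 and 4858 CPM in those labelled LE+IFNy and at 4512, 4913 and 4702 CPM in those labelled PE+IFNy. Across these 4 groups *Calr* thus ran from 4512 to 5499 CPM. With the labels in doubt, that range cannot be read as the effect of the peptides named.

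*Lrp1* in the HLA-labelled series was lowest in the libraries labelled LE+IFNy, at 392, 405 and 410 CPM, followed by PE+IFNy at 463, 539 and 668 CPM. It was highest in those labelled SE+IFNy, at 1065, 1077 and 719 CPM. Under the labels as given, Model A with LE was 0.05 for *Calr* (adjusted p = 0.592) and -0.86 for *Lrp1* (adjusted p = 9.51e-05; edgeR), but since these labels are in doubt the values cannot be read as the effect of the treatment they name, nor set against the letter-labelled results.

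**Figure D5:**
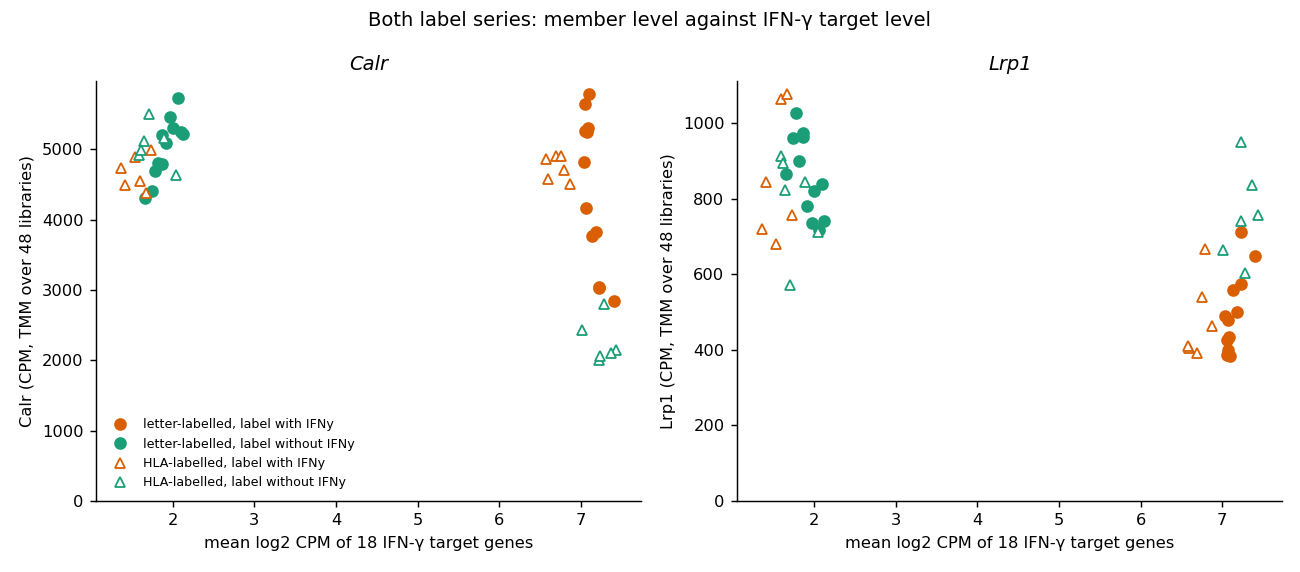
Each point is 1 of 48 libraries, placed by its average log2 CPM over 18 targets of IFN-γ (x axis) and by the CPM of *Calr* (left) or *Lrp1* (right), with the y axes from 0. Filled circles are letter-labelled and open triangles HLA-labelled; orange marks labels with IFNy and green labels without. Letter-labelled libraries sort by colour, whereas 12 of the triangles stand on the other side from their label.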

How the data were processed

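RAW264.7 RNA was sequenced as stranded mRNA libraries with single-end reads, and the authors deposited 1 table of raw read counts per gene, made with featureCounts on GENCODE M12 (GRCm38.p5) from uniquely aligned reads. The counts were used as deposited, with no normalization by the authors. Their processing notes also name DESeq2 1.16.1 and R 3.4.1. Columns were joined to samples through the labels, and groups were kept as labelled. In the table's column order, 8 of 8 runs of 6 columns place 3 letter-labelled columns beside 3 HLA-labelled columns of another group.

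The 19 comparisons were fitted with edgeR 4.0.16 in R 4.3.3 (TMM scaling, filterByExpr, quasi-likelihood F test) on the letter-labelled libraries of each comparison, with Benjamini-Hochberg adjustment over all genes tested. Genes passed at an adjusted p under 0.05 and were called with a fold change over 1.5 as well. Levels are TMM-scaled CPM, and intervals are 95%. The main fits did not pair libraries by replicate number, and a replicate block was an alternative. Members and gene lists were chosen with earlier results of these data known. From each list and comparison up to 2 members per direction with the largest change, passed and at a mean of at least 10 CPM, were eligible to be named, beside *Hspa5*, *Canx*, *Pdia3*, *Lrpap1*, *Apoe* and *B2m*, and the 5 genes most like each member by r (log2 CPM, prior count 2). *Hsp90b1*, *Pdia6* and the other genes with the ERSE were named for that motif. Results for some genes are not reported here. The fits were tested on simulated counts. Alternatives were RLE scaling, no filter, DESeq2 1.42.0, 1 fit of all groups, a replicate block, a length and GC trend subtracted (loess, span 0.3; 98.7% or more of the genes had a length), leaving out each replicate, and the HLA-labelled libraries alone or added.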

Additional observations from a re-analysis of the deposited data

Results flagged for a closer look

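In 4 cases the effect of IFN-γ differed between cells with and without a peptide by the interaction test (edgeR), in the 24 letter-labelled libraries. For *Calr* the interaction was -1.0 with LE and -0.72 with SE, and for *Lrp1* it was 0.70 with LE and 0.54 with SE. The value for *Lrp1* with SE lost its call without replicate 3 and was 0.33 with a length and GC trend subtracted. Under the HLA labels as given, the interaction with LE was 1.15 for *Calr* and -0.90 for *Lrp1*, both with the sign turned. Those labels are in doubt, since 12 of 24 HLA-labelled libraries went against their IFN-γ label while the table's column order placed all 24 beside letter-labelled columns of like IFN-γ target level. The turned signs can therefore not be read as the effect of the treatments named.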

How the results depend on the processing

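Each of the 38 values (19 comparisons, 2 genes) was recomputed under each alternative, on the log2 scale. RLE scaling changed no direction or call. *Calr* with IFN-γ against PBS passed with DESeq2 (0.23), in 1 fit of 8 groups (0.23) and without a filter (0.23). *Calr* with PE against PBS passed with DESeq2 (0.19) and in 1 fit (0.20), and *Lrp1* with SE against PBS with DESeq2 (-0.32), in 1 fit (-0.30) and without a filter (-0.32). *Lrp1* with SE in Model A (0.23) did not pass in 1 fit.

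The main fits did not pair libraries by replicate number, though libraries of the same number were somewhat alike once group means were removed. Of 84 same-numbered pairs of libraries from different groups 46 correlated above 0.1 (r from -0.42 to 0.65, median 0.13). The median over 168 pairs with different numbers was -0.06, and 15 of 24 libraries correlated best with their own number. With a replicate block 3 more values passed, *Calr* with IFN-γ (0.23) and PE (0.18) against PBS and *Lrp1* with SE against PBS (-0.31), and genes passing for SE against PBS went from 1782 to 3108. The block changed no other call of the 2 genes.

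Leaving out 1 replicate number gave 0.21 to 0.26 for *Calr* with IFN-γ, 0.25 to 0.37 for *Calr* with SE against PBS, -0.028 to 0.012 for *Calr* and -0.092 to 0.091 for *Lrp1* between LE and PE, 0.19 to 0.25 for *Lrp1* with SE in Model A, -0.56 to -0.22 for *Lrp1* with LE in Model B, and 0.45 to 0.60 with SE and -0.058 to 0.042 with PE for the *Lrp1* interaction. These include the calls lost and the signs turned. Every other call and direction was kept.

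With a length and GC trend subtracted, which gives no test, 12 values moved by more than the spread within groups. *Calr* was at 0.22 with SE and 0.11 with PE against PBS, -0.71 with LE in Model A, -0.73 for LE against PE with IFN-γ, -0.66 with LE in Model B, and -0.85 with LE and -0.60 with SE for the interaction. *Lrp1* was at -0.082 with SE and 0.11 with PE against PBS, 0.011 for LE against SE and -0.17 for LE against PE without IFN-γ, and 0.33 for the interaction with SE.

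The HLA-labelled libraries alone, as labelled, turned 23 of 38 signs. These values rest on labels that 12 of 24 libraries went against, whereas the column order put libraries with target levels of 1.36 to 2.04 beside letter columns without IFN-γ and those with 6.58 to 7.43 beside columns with it, so they cannot be read as treatment effects. *Calr* was at -0.15 for IFN-γ alone, -1.10 with LE, -0.13 with SE and -1.23 with PE against PBS. Without IFN-γ it was at -0.97 for LE against SE, 0.13 for LE against PE and 1.10 for SE against PE. When IFN-γ was in both groups it was at 0.13, 0.037 and -0.094 for these pairs, 0.055 with LE and -0.077 with SE in Model A, and 1.01, -0.10 and 1.09 in Model B with LE, SE and PE. The interactions were 1.15, 0.050 and 1.25. *Lrp1* was at 0.017 for IFN-γ alone, and 0.035, 0.16 and 0.13 with LE, SE and PE against PBS. It was at -0.12 for LE against SE and 0.030 for SE against PE without IFN-γ, -1.19 for LE against SE and -0.45 for LE against PE with it, -0.86, 0.33 and -0.41 in Model A with LE, SE and PE, 0.18 with SE in Model B, and -0.90 with LE and 0.16 with SE for the interaction.

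With both series in 1 fit and the series as a block, *Calr* was at -0.49, 0.037 and -0.54 with LE, SE and PE against PBS, 0.051 for LE against PE without IFN-γ, -0.26 with SE in Model A, -0.10 for LE against SE and -0.30 for SE against PE when IFN-γ was added, 0.18 with LE and -0.25 with SE in Model B, and 0.10, -0.30 and 0.49 for the interactions. *Lrp1* was at -0.55 for IFN-γ alone, -0.070 with LE and 0.28 with SE in Model A, -0.35, 0.21 and 0.55 for LE against SE, LE against PE and SE against PE with IFN-γ, -0.13 with SE in Model B, and -0.071 with LE and 0.38 with SE for the interaction. These values rest on the same labels in doubt, and the cause of the shifts was not tested.

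The counts that follow are over unlike sets of genes, with DESeq2 over those given an adjusted p. Genes passing for LE against PBS were 3 of 12420. They were 471 of 24420 without a filter, 201 of 4535 with DESeq2, 48 of 13096 in 1 fit and 41 of 12420 with the block. For the PE interaction they were 0 of 13096, and 88 of 27039 without a filter and 25 of 1352 with DESeq2. For PE in Model A they were 1274, and 292 in 1 fit. For SE against PBS they were 1782, and 3069 in 1 fit. For LE against SE, LE against PE and SE against PE without IFN-γ they were 1, 5 and 6, and at most 24, 204 and 75 without a filter. Depth limited neither gene, with at least 8582 counts in each letter-labelled library. The number of cultures, 3 per group, limits small differences.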
